A study of Mus musculus with 10 samples.

Results

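Coenzyme Q, or ubiquinone, is a lipid of the inner mitochondrial membrane that collects electrons from complexes I and II and from several dehydrogenases and passes them to complex III. A polyprenyl tail built from products of the mevalonate pathway is joined to a benzoquinone ring precursor, and the ring is then methylated, hydroxylated and decarboxylated by enzymes that assemble on the matrix face of that membrane. Fat cells that burn fuel for heat carry many mitochondria and use this carrier heavily. The 10 genes described here are Pdss1, Pdss2, Coq2, Coq3, Coq4, Coq5, Coq6, Coq7, Coq8a and Coq9, which make the tail, attach it and modify the ring. They were chosen by gene name from the deposited table, 10 of 40501 gene identifiers, and each had 1 identifier. All 10 passed the filter on low counts, with 74 to 3466 reads per gene and library.

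RNA was sequenced from inguinal white adipose tissue, a fat depot under the skin of the groin, of chow-fed male C57/BL6J mice. The growth protocol gives 8 weeks of chow, while the treatment label gives 8 weeks as the age. Control mice were Cre-negative (n = 5). PexRAP-AKO mice carried the Cre, which targets PexRAP in their fat (n = 5). The driver of the Cre, and the exons it removes, were left unnamed in the sources used here. PexRAP, the product of Dhrs7b, is a reductase of peroxisomal ether lipid synthesis. The comparison asks what its targeting in fat does to transcript levels in the depot. The labels do not say that the samples came from separate litters or cages, so p-values measure the spread between these samples.

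The libraries held 11274865 to 19881168 reads. Dhrs7b checked the labels: it stood at 61.2 to 95.8 CPM (counts scaled to the library's TMM-adjusted total) in Control and at 17.9 to 22.8 CPM in PexRAP-AKO, a log2 fold change of -2.05 (SE 0.12). Its adjusted p was 1.54e-05 by the quasi-likelihood test of edgeR with Benjamini-Hochberg adjustment. The Dhrs7b transcript was thus lower but still present in every PexRAP-AKO library, and protein was not measured here. White adipocyte markers, among them adiponectin and perilipin, were present in every library, with a summed level of 30814 to 42410 CPM. Markers of other cells differed between libraries. B cell markers were highest in PexRAP-AKO replicate 6 (mean 4.85 on the log2 CPM scale) and Control replicate 8 (4.09), T cell markers in PexRAP-AKO replicate 6 (3.74) and skeletal muscle markers in Control replicate 8 (6.62). Epithelial markers, of which 1 of 7 passed the filter, were highest in PexRAP-AKO replicate 6 (3.42). The T cell mean of the other PexRAP-AKO libraries was 0.31 to 1.18. The median log2 fold change was -0.26 over 8 endothelial, 0.05 over 8 fibroblast, 0.16 over 7 macrophage, 1.52 over 6 T cell, 0.98 over 5 B cell and -0.10 over 9 white adipocyte markers. In edgeR 0 passed the adjusted threshold, as did 0.101% of all genes tested. At an unadjusted p under 0.05, 4 of 8 endothelial and 1 of 9 white adipocyte markers were lower, against 6.44% of all genes. At that level 3 of 6 T cell markers were higher, against 9.01%, and the fibroblast, macrophage and B cell lists had 0 either way. All 8 endothelial markers had a negative fold change. In such bulk samples, fewer cells of a type and less RNA per cell cannot be told apart.

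None of the 10 enzymes passed edgeR's test over all genes at an adjusted p of 0.05, against 15 of 14913 genes tested (0.101%). All 10 had a positive log2 fold change in PexRAP-AKO over Control, from 0.02 for Coq2 to 0.52 for Coq7, with a median of 0.22, while the median over all genes tested was -0.0007. At an unadjusted p under 0.05 there were 4 of 10, Coq9, Coq3, Coq7 and Coq6, all higher in PexRAP-AKO, where 9.01% of all genes tested were higher and 6.44% lower at that level. The libraries of the groups did not overlap for 2 of 10, Coq9 and Coq3, against 2.08% of all genes with every PexRAP-AKO library above every Control library. With DESeq2 the count past 0.05 was 1, Coq9 (adjusted p = 0.0121), where 439 of the 10287 genes given an adjusted p passed (4.27%).

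**Figure D1:**
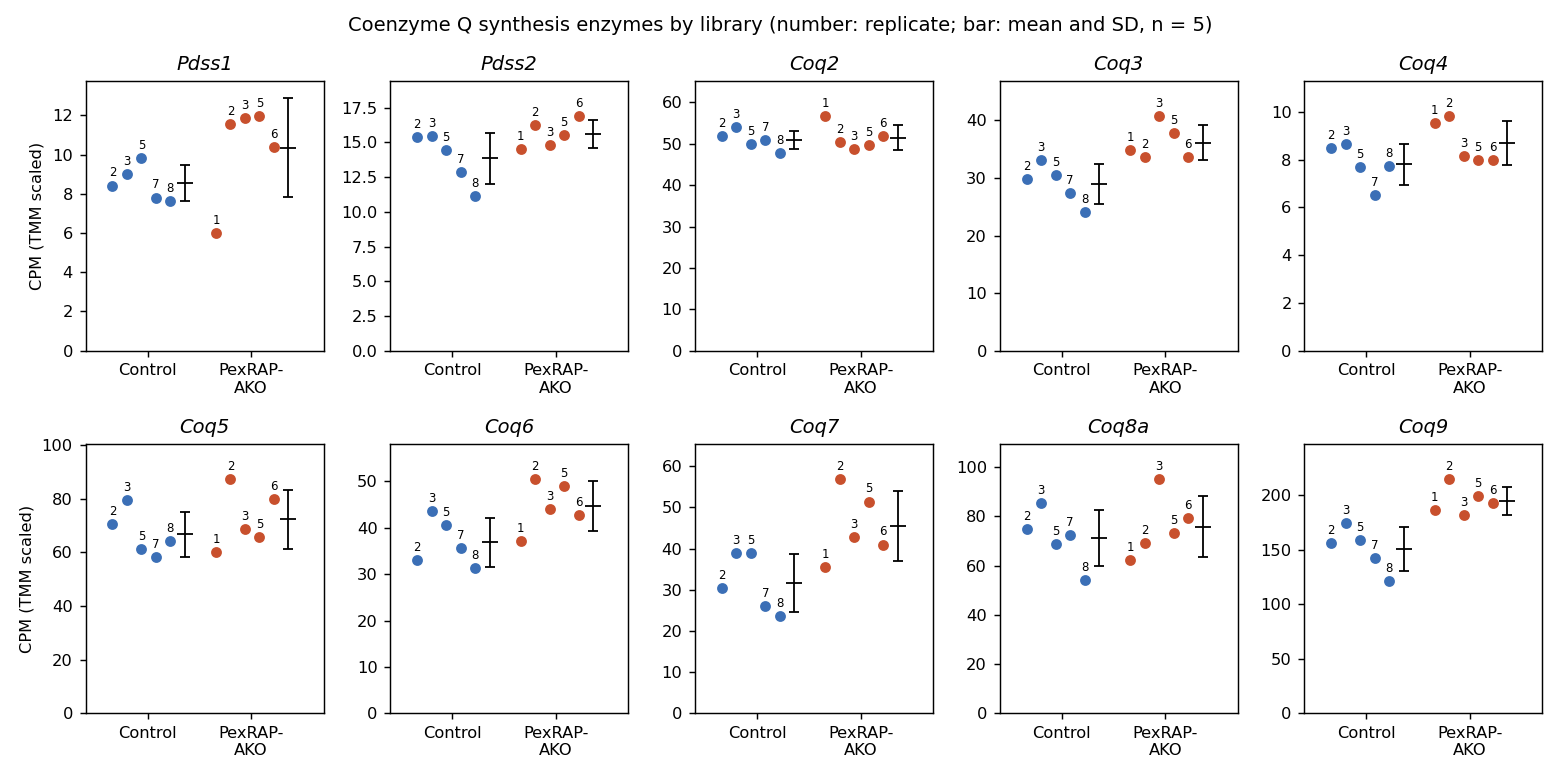
Each panel shows 1 gene, with CPM after TMM scaling on the vertical axis starting at 0; points are libraries marked with their replicate number, and bars beside them are the mean and SD of 5. Every PexRAP-AKO library lies above every Control library for Coq9 and Coq3, the groups overlap for Coq2, and PexRAP-AKO replicate 1 lies apart for Pdss1 at 5.99 CPM.

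The tail is made by a polyprenyl diphosphate synthase, whose subunits are encoded by Pdss1 and Pdss2. Pdss1 (chromosome 2, 22895522 to 22940266, plus strand, GRCm38) stood at 8.42, 9.01, 9.84, 7.81 and 7.63 CPM in Control replicates 2, 3, 5, 7 and 8. In PexRAP-AKO replicates 1, 2, 3, 5 and 6 it stood at 5.99, 11.6, 11.9, 11.95 and 10.4 CPM. Of the PexRAP-AKO libraries, 4 lay above the highest Control library, and replicate 1 lay below the lowest. The log2 fold change was 0.27 (SE 0.17, edgeR adjusted p = 0.471), and without PexRAP-AKO replicate 1 it was 0.41 (adjusted p = 0.09995). Pdss2 (chromosome 10, 43221486 to 43464882, plus strand) ranged from 11.2 to 15.5 CPM in Control and from 14.5 to 16.9 CPM in PexRAP-AKO. Its log2 fold change was 0.17 (SE 0.10, edgeR adjusted p = 0.44), with overlapping groups. Without Control replicate 8 the Pdss2 log2 fold change was 0.0998.

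Coq2 encodes the transferase that joins the tail to 4-hydroxybenzoate. Coq2 (chromosome 5, 100654723 to 100675140, minus strand) stood at 52.0, 54.0, 50.02, 50.8 and 47.8 CPM in Control replicates 2, 3, 5, 7 and 8 and at 56.7, 50.4, 48.9, 49.8 and 51.8 CPM in PexRAP-AKO replicates 1, 2, 3, 5 and 6. It was the steadiest of the 10, with an SD of 0.065 in Control and 0.084 in PexRAP-AKO on the log2 CPM scale. Its log2 fold change was 0.02 (SE 0.06, edgeR adjusted p = 0.921), and the sign turned in 6 of 21 alternative settings. PexRAP-AKO replicate 1, the lowest of all libraries for Pdss1, was the highest of all for Coq2.

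Methyl groups are added to the ring by the products of Coq3, an O-methyltransferase, and Coq5, a C-methyltransferase. Coq3 (chromosome 4, 21879673 to 21912162, plus strand) was at 29.8, 33.2, 30.5, 27.3 and 24.1 CPM in Control replicates 2, 3, 5, 7 and 8. It was at 34.8, 33.7, 40.7, 37.8 and 33.6 CPM in PexRAP-AKO replicates 1, 2, 3, 5 and 6. The groups were separated by a narrow gap, from 33.2 to 33.6 CPM, and the log2 fold change was 0.31 (SE 0.09, edgeR adjusted p = 0.167). Coq5 (chromosome 5, 115279666 to 115296972, plus strand) overlapped between groups, at 58.4 to 79.5 CPM in Control and 60.0 to 87.4 CPM in PexRAP-AKO. Its log2 fold change was 0.12 (SE 0.11, edgeR adjusted p = 0.66). The Coq5 log2 fold change moved from 0.04 without PexRAP-AKO replicate 2 to 0.19 without Control replicate 3.

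Hydroxyl groups are added by the flavin-dependent Coq6 product and by the Coq7 product, the hydroxylase near the end of the route, which works with the lipid-binding protein encoded by Coq9. Coq7 (chromosome 7, 118509659 to 118533356, minus strand) had the largest fold change of the 10. It stood at 30.5, 38.8, 39.0, 25.9 and 23.7 CPM in Control replicates 2, 3, 5, 7 and 8 and at 35.6, 56.9, 42.8, 51.4 and 41.0 CPM in PexRAP-AKO replicates 1, 2, 3, 5 and 6. Control replicates 3 and 5 were above PexRAP-AKO replicate 1, and the other 4 PexRAP-AKO libraries were above all Control libraries. The log2 fold change was 0.52 (SE 0.17, edgeR adjusted p = 0.1998). Coq7 also had a wide spread within groups, with an SD of 0.33 in Control and 0.27 in PexRAP-AKO on the log2 CPM scale.

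Coq9 (chromosome 8, 94838321 to 94854895, plus strand) had the smallest p of the 10 and ranked 205 among all genes tested. It stood at 156, 175, 159, 142 and 121 CPM in Control replicates 2, 3, 5, 7 and 8 and at 186, 215, 181, 199 and 192 CPM in PexRAP-AKO replicates 1, 2, 3, 5 and 6. The lowest PexRAP-AKO library lay above the highest Control library. The log2 fold change was 0.37 (SE 0.09, edgeR adjusted p = 0.13). Coq6 (chromosome 12, 84361657 to 84373796, plus strand) ranged from 31.3 to 43.6 CPM in Control and from 37.2 to 50.5 CPM in PexRAP-AKO. Its log2 fold change was 0.28 (SE 0.11, edgeR adjusted p = 0.248), and the groups overlapped.

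Coq4 and Coq8a encode proteins that support the enzyme assembly, Coq4 a component needed for its stability and Coq8a an atypical kinase-like ATPase. Coq4 (chromosome 2, 29787493 to 29797935, plus strand) lay at 6.51 to 8.66 CPM in Control against 7.98 to 9.82 CPM in PexRAP-AKO, a log2 fold change of 0.15 (SE 0.11, edgeR adjusted p = 0.536). Without Control replicate 7 the Coq4 log2 fold change was 0.096. Of its exon bases, 27.1% are shared with Trub2 on the opposite strand. Whether the counting used strand is unknown here, so its level is uncertain. For the other members at most 6.91% of exon bases, those that Coq8a shares with Cdc42bpa, overlap another single gene. Coq8a (chromosome 1, 180165238 to 180199602, minus strand) ranged from 54.1 to 85.3 CPM in Control and from 62.3 to 95.2 CPM in PexRAP-AKO. Its log2 fold change was 0.09 (SE 0.13, edgeR adjusted p = 0.781), and the Coq8a log2 fold change was -0.0023 without PexRAP-AKO replicate 3, its highest library, and 0.17 without Control replicate 3. Control replicate 8, which had the most skeletal muscle RNA by its markers, had the lowest Coq8a of all libraries. That library was the lowest of all for 7 of the 10 enzymes, and a link to muscle was not tested for Coq8a by itself.

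**Figure D2:**
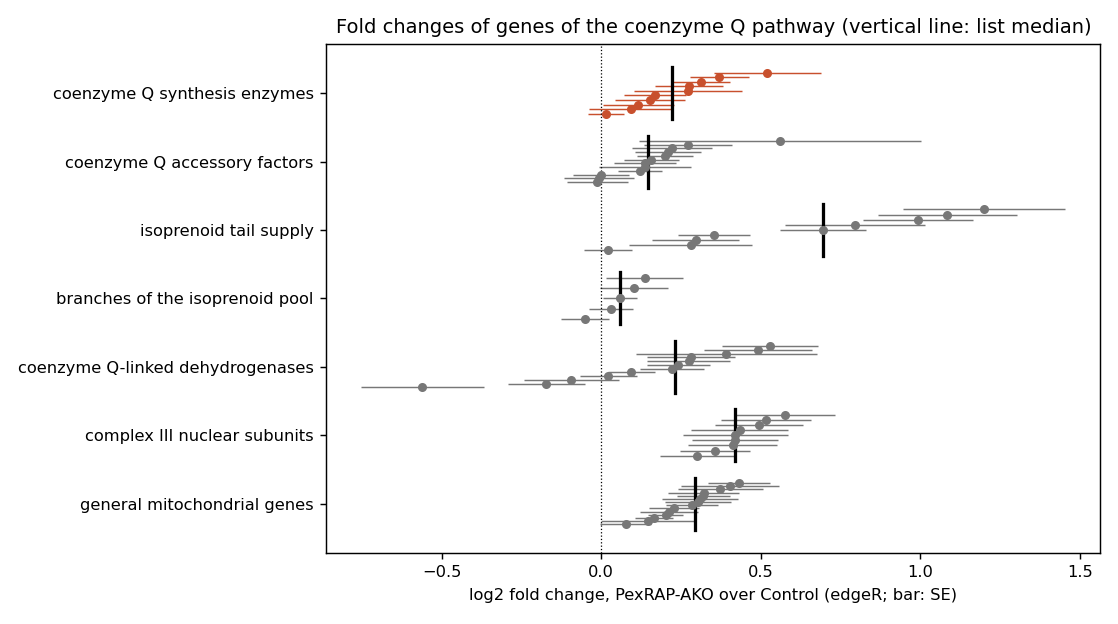
Points are genes, with the log2 fold change of PexRAP-AKO over Control on the horizontal axis and bars of 1 SE; rows are gene lists, and the vertical line in each row is its median. The 10 coenzyme Q enzymes have a median of 0.22, below that of the isoprenoid tail supply (0.69) and complex III (0.42).

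Compared per length, the messages of the 10 enzymes spanned a wide range. In RPKM (CPM divided by the kilobases of all the gene's exons together), Coq9 was highest in Control at 49.3 ± 6.60 (SD, n = 5). Coq5 followed at 22.01 ± 2.77, Coq2 at 19.4 ± 0.872, Coq8a at 13.4 ± 2.14, Coq6 at 11.7 ± 1.653 and Coq3 at 9.67 ± 1.14 (SD, n = 5 each). Coq7 was at 4.91 ± 1.10, and the lowest were Pdss2 at 2.32 ± 0.308, Coq4 at 2.30 ± 0.252 and Pdss1 at 2.01 ± 0.214 (SD, n = 5 each). The Control values of neighbours in this order overlapped for Coq5 and Coq2, Coq8a and Coq6, Coq6 and Coq3, Pdss2 and Coq4, and Coq4 and Pdss1. The mean order was the same in PexRAP-AKO, where Coq9 was at 63.7 ± 4.26 and Coq7 at 7.08 ± 1.32 (SD, n = 5 each). Single PexRAP-AKO libraries did not all keep it: Coq8a was above Coq6 in 2 of 5, and Coq4 above Pdss1 in 2 of 5. Pdss2 was above Coq4 in 3 of 5 and Coq5 above Coq2 in 4 of 5. With the longest transcript as the length, Coq7 stood at 10.3 in Control, beside Coq3 at 10.9, and Pdss1 stood above Pdss2 and Coq4. By that length Coq7 (14.8) was above Coq3 (13.6) in PexRAP-AKO.

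**Figure D3:**
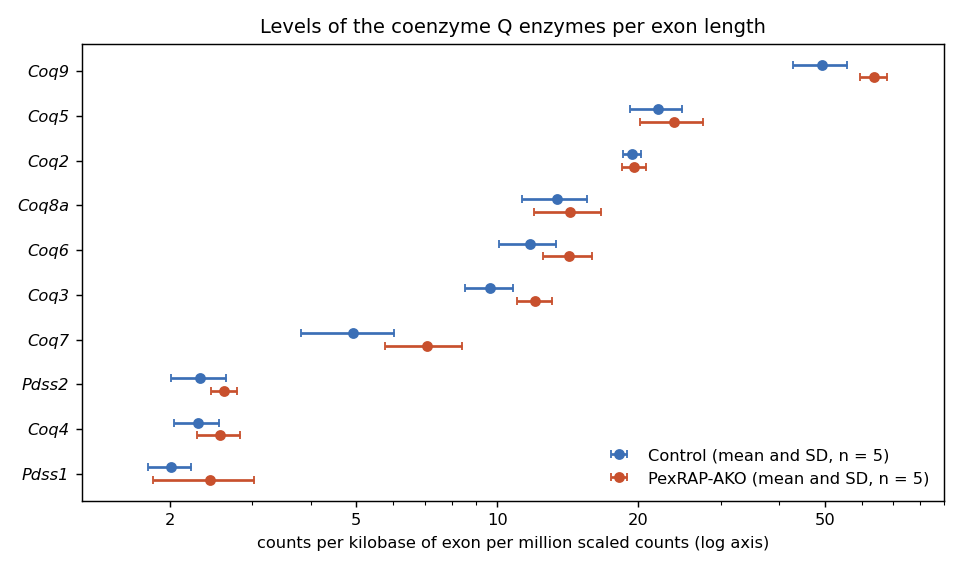
Points are mean levels in RPKM on a log axis, with bars of 1 SD over 5 libraries, in Control and PexRAP-AKO. Coq9 stands at the top at 49.3 in Control, and Pdss2, Coq4 and Pdss1 lie together at the bottom between 2.01 and 2.32.

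In some libraries most of the enzymes lay on the same side of their group mean, and in others they were divided. In Control replicate 8, 0 of 10 members were above their Control mean, and it was the lowest of all 10 libraries for 7 of them. Control replicate 7 had 1 of 10 above the mean and was the lowest of all libraries for 2, while Control replicate 3 had 10 of 10 above it. In PexRAP-AKO, replicate 2 had 7 of 10 above the group mean and was the highest of all libraries for 5. PexRAP-AKO replicate 1 had 2 of 10 above it, Coq2 and Coq4. Control replicates 2 and 5 had 7 and 6 of 10 above their group mean, and PexRAP-AKO replicates 3, 5 and 6 had 3, 5 and 5.

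The order of the libraries was much like that for other mitochondrial genes. The mean log2 CPM of the 10 enzymes ran from 4.78 to 5.20 over the Control libraries and from 5.05 to 5.35 over those of PexRAP-AKO. For 14 general mitochondrial genes, such as citrate synthase, porin and prohibitins, it was 6.32 to 6.66 and 6.62 to 6.88. The enzymes' mean less that of these genes was -1.55 to -1.46 in Control and -1.59 to -1.48 in PexRAP-AKO, so the groups overlapped. Taken singly against the same 14 genes, the groups overlapped for each of the 10 enzymes. For Coq7 the difference was -1.74 to -1.34 in Control and -1.46 to -1.05 in PexRAP-AKO, and for Coq9 it was 0.60 to 0.79 and 0.66 to 0.92.

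Brown adipocyte markers also differed between libraries in the same direction. The fold change was positive for all 12 markers (median log2 value 0.88), and 0 passed the adjusted threshold in edgeR. Their summed level was 291 to 2366 CPM in Control and 635 to 3066 CPM in PexRAP-AKO, and no marker was at 0 in any library. Their mean log2 CPM was lowest in Control replicates 8 (3.27) and 7 (3.66), the libraries lowest for the coenzyme Q enzymes, and PexRAP-AKO replicate 1 (4.55) was the lowest of its group. Elsewhere the orders differed: Control replicate 5 had the third highest brown mean (6.35) but an enzyme mean of 5.07, below those of Control replicate 3 and PexRAP-AKO replicates 2 and 6. PexRAP-AKO replicate 2, highest for the enzymes, was at 5.95 for the brown markers, below PexRAP-AKO replicates 3 and 5 and Control replicate 5. Ucp1, the uncoupling protein of brown fat, had means of 386 ± 461 CPM (Control) and 839 ± 628 CPM (PexRAP-AKO), each over 5 libraries with its SD (edgeR adjusted p = 0.648). With the brown marker mean as a covariate, the median of the 10 enzymes was 0.10, Coq9 was at 0.27 (SE 0.09, edgeR adjusted p = 0.495) and Coq7 at 0.27 (SE 0.12, edgeR adjusted p = 0.594). Several of these markers, Ppargc1a and Cox7a1 among them, are themselves genes of mitochondria or their control. Skeletal muscle markers ran the other way, with a summed level of 16.5 to 1396 CPM in Control and 10.99 to 128 CPM in PexRAP-AKO, 10 of 10 with a negative fold change and Ckm at 0 in at least 1 library. With the muscle marker mean as a covariate the median of the enzymes was 0.16. The part of brown fat cells or of muscle in the fold changes of the enzymes was otherwise not tested.

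**Figure D4:**
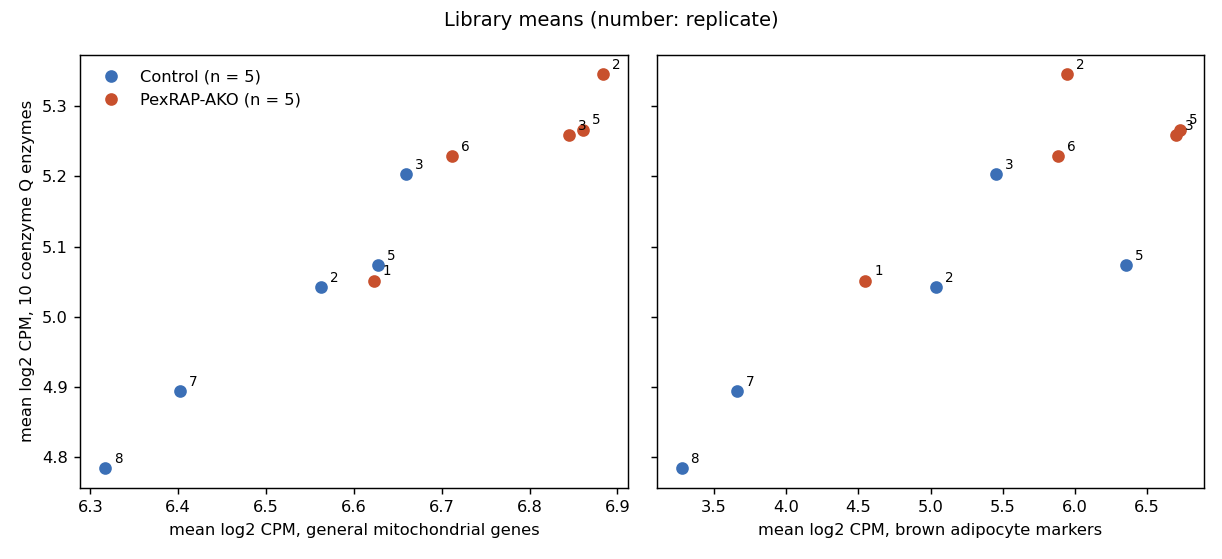
Each point is 1 library, marked with its replicate number; the vertical axis is the mean log2 CPM of the 10 coenzyme Q enzymes, and the horizontal axes are the mean log2 CPM of 14 general mitochondrial genes (left) and of 12 brown adipocyte markers (right). Control replicates 7 and 8 are lowest on all 3 axes, and PexRAP-AKO replicate 1 lies among the Control libraries.

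By the rule on likeness, the genes outside the lists whose log2 CPM most resembled the enzymes' mean over 10 libraries were Slc36a2 (Pearson r = 0.985, Spearman rho = 0.939), Idh3g (r = 0.98, rho = 1), Coasy (r = 0.978, rho = 0.976), Idh3b (r = 0.978, rho = 0.988) and Mtch2 (r = 0.976, rho = 0.964). They were picked as the highest of 12661 genes, so the values are a description and carry no p. Without the 2 libraries farthest from the median of the enzymes' mean, r was 0.932 to 0.976. Slc36a2 is an amino acid transporter, Idh3g and Idh3b are subunits of the isocitrate dehydrogenase of the citric acid cycle, Coasy makes coenzyme A and Mtch2 is a protein of the outer mitochondrial membrane.

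Upstream of the tail, several genes of the mevalonate pathway had larger fold changes than the enzymes, and others did not. Of 9 genes of isoprenoid tail supply, 9 were positive (median log2 fold change 0.69), and 0 passed edgeR's adjusted threshold. At an unadjusted p under 0.05, 6 of 9 were higher, against the 9.01% of all genes. Pmvk, phosphomevalonate kinase, had a mean of 48.2 ± 10.1 CPM over Control and of 96.1 ± 21.6 CPM over PexRAP-AKO libraries (SD, n = 5 each), a log2 fold change of 0.99 (SE 0.17, edgeR adjusted p = 0.0704). Fdps, farnesyl diphosphate synthase, which makes the starter of the tail, was at 1.09 (SE 0.22, edgeR adjusted p = 0.089). Mvd (1.20) decarboxylates mevalonate diphosphate and Acat2 (0.69) joins acetyl units at the start. Idi1, an isomerase, was at 0.80. Lower in the list were Mvk at 0.30, Hmgcs1 at 0.28 and Ggps1, which makes geranylgeranyl diphosphate, at 0.02 (SE 0.08, edgeR adjusted p = 0.922). Past the adjusted threshold there were 3 of 9 when PexRAP-AKO replicate 1 was left out, where 58 of all genes passed (0.382%), and 2 of 9 when Control replicate 3 was, where 43 passed (0.287%). With DESeq2 there were 4 of 9, against the 4.27% of all genes, and with limma voom and sample quality weights 4 of 9, against 107 of all genes (0.717%).

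Genes that draw on the same isoprenoid pool for other ends had a median of 0.06, with 0 of 5 at an unadjusted p under 0.05. Of all genes tested, 9.01% were higher and 6.44% lower at that level, so for 5 genes a count of 0 is close to those shares. Fdft1, squalene synthase, the entry to sterols, was at 0.14 (SE 0.12, edgeR adjusted p = 0.628). Fntb, of protein farnesylation, was at 0.10, Nus1, of dolichol synthesis, at 0.06 and Pggt1b, of protein geranylgeranylation, at -0.05. These small values moved by more than 1.5 times when single libraries were left out, the Fdft1 log2 fold change from 0.06 without PexRAP-AKO replicate 2 to 0.22 without Control replicate 3.

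Factors that serve coenzyme Q synthesis or handling without being among the 10 had a median of 0.15, with 10 of 12 positive and 0 past the adjusted threshold. At an unadjusted p under 0.05 there was 1 of 12, close to the 9.01% of all genes that were higher at that level. It was Coq10a (0.20, SE 0.09, edgeR adjusted p = 0.2999), a lipid-binding coenzyme Q chaperone. Its paralogue Coq10b was at 0.27 (SE 0.14, edgeR adjusted p = 0.376), the kinase-like Adck1 at 0.21 and the lipid carrier Stard7 at 0.16. Without Control replicate 8, the Coq10a log2 fold change was 0.13, the Adck1 log2 fold change 0.12 and the Stard7 log2 fold change 0.08, and without PexRAP-AKO replicate 5 the Coq10b log2 fold change was 0.18. Coq8b, the paralogue of Coq8a, chosen after its value was seen, was at 0.12 (SE 0.07, edgeR adjusted p = 0.425).

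Genes linked to the entry of electrons into coenzyme Q, directly or, as Etfa and Etfb, by way of Etfdh, had a median of 0.23 over 12 tested genes. At an unadjusted p under 0.05, 4 of 12 were higher and 1 was lower, against 9.01% and 6.44% of all genes. Etfdh, the ubiquinone oxidoreductase of fatty acid oxidation, had a mean of 184 ± 41.5 CPM in Control against 266 ± 33.0 CPM in PexRAP-AKO (SD, n = 5 each), a log2 fold change of 0.53 (SE 0.15, edgeR adjusted p = 0.171). Sdhd (0.49) and Sdhc (0.24), the membrane subunits of complex II, were also among the 4. Prodh, the proline dehydrogenase, was the 1 that was lower at that level, at -0.56 (SE 0.19, edgeR adjusted p = 0.215).

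Complex III takes the electrons back from coenzyme Q. At an unadjusted p under 0.05 in edgeR, 9 of 9 nuclear subunits were higher in PexRAP-AKO, against 9.01% of all genes tested. Their median was 0.42, with 0 past the adjusted threshold. Uqcr10 (0.58), Uqcrq (0.52), Uqcrh (0.49) and Uqcr11 (0.36) had the smallest p. Of the 14 general mitochondrial genes, 12 were higher at that level, against the same 9.01% of all genes, with a median of 0.29. They include the prohibitins Phb (0.43) and Phb2 (0.29), the cristae protein Immt (0.32) and Tfam (0.20), which packages mitochondrial DNA. The share of coenzyme Q enzymes at that level, 4 of 10, was thus above that of all genes but below those of complex III and the general mitochondrial genes; the difference between lists was not tested.

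Promoter windows of 250 bases before to 50 after a start were found in RefSeq (GRCm38.p6) for 9 of the 10 enzymes. They were searched on both strands for the letters CGCATGCG (NRF1), CCGGAAGT (ETS factors), TCAAGGTCA (ERR), AANATGGCG (YY1) and TCACNCCAC (SREBP). None of the 9 held the NRF1, ETS or ERR letters, which stood in 4.06%, 8.59% and 0.319% of the windows of 10658 tested genes. The YY1 letters stood in 2 of 9, Coq9 and Pdss2, against 5.6%, and the SREBP letters in 1 of 9, Coq4, against 1.41%. The YY1 letters began after the start, at position 6 in Coq9 and 8 in Pdss2. Only these letters in these windows were searched. The stretches before the start that lie in no GENCODE exon are shown for Coq7, Coq3 and Coq4. Coq7 had the largest fold change, and the groups did not overlap for Coq3. In Coq4, capitals mark the SREBP letters beginning at position -47 from the start. Coq9, whose groups did not overlap either, had no such stretch in its window. Coq3 had a further window, which is not shown. The stretches shown are chr7:118533357-118533606 on the minus strand, chr4:21879396-21879645 on the plus strand and chr2:29787243-29787492 on the plus strand.
Coq7: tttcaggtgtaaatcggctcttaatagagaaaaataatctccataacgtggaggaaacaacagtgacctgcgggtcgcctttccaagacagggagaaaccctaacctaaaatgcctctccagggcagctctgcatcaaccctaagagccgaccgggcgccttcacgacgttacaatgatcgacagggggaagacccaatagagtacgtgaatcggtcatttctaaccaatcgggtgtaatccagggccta
Coq3: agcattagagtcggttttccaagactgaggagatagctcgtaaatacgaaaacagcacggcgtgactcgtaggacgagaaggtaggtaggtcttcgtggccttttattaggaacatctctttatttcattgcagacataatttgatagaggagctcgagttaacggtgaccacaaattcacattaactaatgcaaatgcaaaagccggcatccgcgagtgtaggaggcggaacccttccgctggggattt
Coq4: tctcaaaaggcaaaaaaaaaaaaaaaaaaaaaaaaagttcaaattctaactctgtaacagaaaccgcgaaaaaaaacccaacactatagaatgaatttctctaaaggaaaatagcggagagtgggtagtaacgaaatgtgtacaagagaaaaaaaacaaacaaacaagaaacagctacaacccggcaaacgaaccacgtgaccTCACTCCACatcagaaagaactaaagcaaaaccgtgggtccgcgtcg
The Coq7 and Coq3 stretches held none of the searched letters.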

How the data were processed

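Raw read counts per gene were deposited by the authors as 1 table with 1 column per sample. Per the submitters' processing notes, STAR 2.0.4b, Subread with featureCounts, and edgeR were used. The genome build, the annotation and the strand setting were among the steps not given in the sources used here. Of 40724 rows, 1 was kept for each of 40501 gene identifiers, since 117 identifiers were repeated with the same counts. Positions and exon lengths came from GENCODE M21 (GRCm38), which held 99.4% of the identifiers.

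Counts of all 10 libraries were scaled by TMM in edgeR 4.0.16 (R 4.3.3). filterByExpr (minimum count 10, minimum total 15) left 14913 genes. Groups were compared by the quasi-likelihood F test of edgeR (robust, without covariates), adjusted by Benjamini-Hochberg over the 14913 genes, with a threshold of 0.05. The SE is the log2 fold change over the square root of F. Log2 CPM used a prior count of 2, and list means are means of log2 CPM over tested members. On simulated counts for these 14913 genes, the PexRAP-AKO against Control test found 47.0% of the genes given a 1.5-fold change, 72.9% at 2-fold and 93.8% at 4-fold, with 7 of 149 calls false.

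The members and gene lists, 146 of 147 symbols of which were found, were chosen with earlier results of these data known. Most genes were named by rule: the 10 enzymes, Dhrs7b, up to 4 genes per pathway list by smallest p, and the 5 most like the enzymes' mean among protein-coding genes of at least 1 CPM. Among pathway genes, Idi1, Mvk, Hmgcs1, Ggps1 and Coq8b were named outside this rule, with their values known. Markers of 9 cell types were listed. Some further genes are not reported here. Replicates were compared by chi-square (lowest value within a group 7.08 per degree of freedom), and each was kept as 1 sample. Alternatives were other scalings, no filter, DESeq2 1.42.0, limma 3.58.1 voom, marker means as covariates, a replicate block, a threshold of 0.1 and leaving out libraries.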

Additional observations from a re-analysis of the deposited data

Results flagged for a closer look

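Among 22 groups of 5 values (the 10 enzymes and Dhrs7b in each group), 1 held a library far from the other 4: Pdss1 in PexRAP-AKO replicate 1, at 2.62 on the log2 CPM scale, below the next lowest at 3.40. Chance flags about 1 in 20 such groups.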

How the results depend on the processing

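Over the alternatives run, 1 of them chosen after seeing the data (without the pair PexRAP-AKO replicate 6 and Control replicate 8), the median log2 fold change of the 10 enzymes stayed positive, at 0.10 (brown adipocyte score as a covariate) to 0.26. It was 0.18 to 0.26 leaving out 1 library at a time. The count of enzymes past the threshold was 0 in all but DESeq2, where it was 1. With the replicate block (numbers 2, 3 and 5, 6 libraries) the median was 0.16, and the Coq9 log2 fold change was 0.27 (edgeR adjusted p = 0.435). Same-numbered samples deviated from their group means with correlations of -0.021, -0.081 and 0.36, and were therefore not treated as paired. The sign of the Coq2 log2 fold change turned with total counts only (-0.0548), the skeletal muscle score (-0.0015), the replicate block (-0.0704) and the pair left out (-0.0081). Over single libraries left out it ran from -0.0217 to 0.0379. The Coq8a log2 fold change was -0.0708 with the brown score and -0.0072 without the pair, and ran from -0.0023 to 0.1677 over single libraries. The Nus1 log2 fold change was -0.0104 with total counts only. The Pggt1b log2 fold change was 0.0284 with the brown score, 0.0201 with the replicate block and 0.013 without the pair, and ran from -0.1006 to -0.0173 over single libraries. Dhrs7b stayed past the threshold in every alternative (-2.14 to -1.97). The count of all genes past the threshold was 15. It was 26 with no filter, 439 with DESeq2, 107 with sample quality weights, 7 with the brown score, 6 with the muscle score, 3 with the replicate block, 5 without the pair and 98 at an adjusted p under 0.1. Over single libraries left out it ran from 3 (Control replicate 8) to 58 (PexRAP-AKO replicate 1), with 43 without Control replicate 3 and 5 or 6 without PexRAP-AKO replicate 2 or 5 or Control replicate 2, 5 or 7. The cause was not tested. Of 735 values of 35 genes, 701 kept their side and sign, 21 gained a call and 13 turned. At 47.0% recovery of 1.5-fold changes in simulated counts, changes as small as those of the enzymes can be missed, so a p above the threshold does not show equal levels.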
